A study of Homo sapiens with 12 samples.

Results

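The mRNA levels of 10 keratin genes, out of 23064 gene symbols counted, were examined in CAL-29 and 5637 cells, a pair of human bladder carcinoma lines, by RNAseq. The genes were chosen by name as keratins that mark the layers of the urothelium: KRT5, KRT6A, KRT14 and KRT17 for basal cells, KRT13 for intermediate cells, and KRT7, KRT8, KRT18, KRT19 and KRT20 for luminal cells. Where a symbol had several transcript rows in the count tables, the row with the most counts was used. All 10 genes were present in both tables, and the same transcript was chosen in both lines.

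Each line had 3 libraries of cells given a control siRNA (siCtrl) and 3 libraries of cells given an siRNA against KMT9α (siKMT9α), 12 libraries in all, harvested at day 3. CAL-29 cells received 50 nM siRNA with RNAiMAX and 5637 cells 90 nM with DharmaFECT 3, in different media, so that the cell line cannot be told apart from reagent, dose and medium. The cells carried no engineered allele, the labels give their genotype as WT, and 1 siRNA sequence against KMT9α was used in the RNAseq. KMT9α is the catalytic subunit of a histone lysine methyltransferase and is encoded by N6AMT1. The labels do not say whether the 3 libraries of a group came from separate cultures, so the p-values measure the spread between these libraries, which may be technical.

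Keratins form the intermediate filaments of epithelial cells. A filament is built from heterodimers of a type I and a type II keratin, so that the genes are usually expressed as pairs, such as KRT5 with KRT14 in basal cells and KRT8 with KRT18 in simple and luminal cells. In normal urothelium the basal layer carries KRT5, intermediate cells carry KRT13, and the umbrella cells at the surface carry KRT20. The same genes are used to sort bladder carcinomas into basal and luminal subtypes. Of the genes examined, KRT5, KRT6A, KRT7 and KRT8 are type II and lie on chromosome 12, where KRT18 lies next to KRT8. KRT13, KRT14, KRT17, KRT19 and KRT20 are type I and lie on chromosome 17. In GRCh37, the hg19 build of the counts, the type II genes span chr12:52908359-52914314 (KRT5), chr12:52880960-52887041 (KRT6A), chr12:52626304-52645970 (KRT7) and chr12:53290971-53343738 (KRT8). KRT18 spans chr12:53342655-53346690 and overlaps the 5′ end of the KRT8 locus, which is on the other strand. On chromosome 17 the genes span chr17:39657233-39661957 (KRT13), chr17:39738531-39743147 (KRT14), chr17:39775694-39781094 (KRT17), chr17:39679869-39684560 (KRT19) and chr17:39032141-39041494 (KRT20). Only KRT7 and KRT18 are on the plus strand.

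The libraries held 24479488 to 35148657.5 counts on the transcripts kept. Levels were compared between genes only as TMM-scaled CPM, the count relative to library size, divided by transcript length (CPM per kb). The targeted gene was lower in every siKMT9α library. N6AMT1 stood at 11.1, 9.98 and 9.43 CPM in the CAL-29 siCtrl libraries and at 2.78, 2.89 and 1.96 CPM in the siKMT9α libraries, a log2 fold change of −2.0 ± 0.15 (SE). In 5637 cells it stood at 13.7, 13.4 and 13.5 CPM against 3.83, 2.26 and 2.62 CPM, a log2 fold change of −2.23 ± 0.12.

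At the baseline, the siCtrl cells of both lines carried basal and luminal keratin mRNA side by side. The basal genes made up 29.8% ± 0.976 (SD, n = 3) of the summed CPM per kb of the 10 keratins in CAL-29 cells and 28.3% ± 0.486 in 5637 cells. The luminal genes made up 69.7% ± 0.955 and 71.7% ± 0.487. These totals were similar although they were made of different genes. In CAL-29 cells KRT8 held 34.7% ± 0.532 of the sum and KRT7 0.622% ± 0.0195. In 5637 cells KRT7 held 35.0% ± 0.537 and KRT8 9.41% ± 0.0520. KRT20, the keratin of umbrella cells, held 0.0909% ± 0.011 in CAL-29 and 0.000339% ± 0.000371 in 5637 cells. The luminal share was thus almost wholly that of the other luminal genes.

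**Figure D1:**
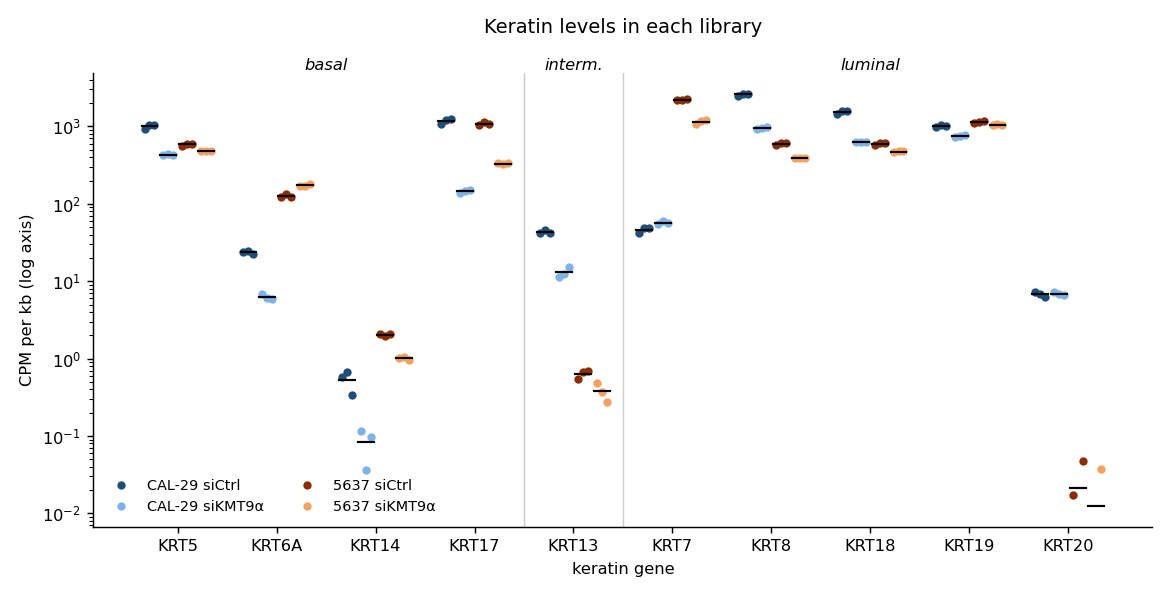
Level of each of the 10 keratins in each of the 12 libraries, as CPM per kb on a log axis, with a point for each library and a black bar for the mean of its group; libraries at 0 (KRT20 in 5637 cells) are not drawn. KRT7, KRT13 and KRT20 lie far apart between the lines, and KRT17 is lower in every siKMT9α library than in every siCtrl library of its line.

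In CAL-29 siCtrl cells the order of the levels per length was KRT8, KRT18, KRT17, KRT5, KRT19, KRT7, KRT13, KRT6A, KRT20 and KRT14. KRT5 and KRT19 overlapped between libraries in that order, as did KRT7 and KRT13, and all other neighbours were apart in every library. In 5637 siCtrl cells the order was KRT7, KRT19, KRT17, KRT8, KRT18, KRT5, KRT6A, KRT14, KRT13 and KRT20. There KRT19 overlapped with KRT17, KRT8 with KRT18, and KRT18 with KRT5.

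The lines were then compared gene by gene in their siCtrl libraries. Calls rest on edgeR's quasi-likelihood F test over all genes, with the study's limit of 1e-06 on the unadjusted p. By this rule 8 of the 10 keratins differed between the lines, 5 of them higher and 3 lower in CAL-29 cells. Of all 15070 genes tested 54.7% were called, 26.6% higher and 28.1% lower in CAL-29 cells, and at an adjusted p below 0.05 the shares were 42.6% higher and 42.6% lower. A call in this comparison was thus common for any gene, and the keratins are described by the size of their differences.

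Among the basal genes, KRT5, the type II keratin of basal cells, stood at 929, 1058 and 1048 CPM per kb in CAL-29 siCtrl libraries and at 563, 599 and 597 in 5637 siCtrl libraries. The groups did not overlap, and KRT5 was 1.73-fold higher in CAL-29 cells (log2 difference 0.79 ± 0.06, adjusted p = 4.2e-10). KRT14, its type I partner, was close to absent in both lines. It had 24, 29 and 15 counts in the CAL-29 siCtrl libraries and 108.5, 97 and 119 in the 5637 siCtrl libraries. KRT14 was 3.81-fold lower in CAL-29 cells (log2 difference −1.93 ± 0.23, adjusted p = 2.2e-07), a call that was lost without 5637 siCtrl library 1 or 3 (−1.93 and −1.92). The ratio of KRT5 to KRT14 was 289 ± 18.7 per length in 5637 cells and between 1566 and 3105 in the CAL-29 libraries. Of the stretches of 50 bases in the KRT14 transcript, 24.2% also occur in other genes, KRT16 (11.3%) foremost. Counts of KRT14 may thus include reads of these genes.

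KRT5 was high in both lines, whereas KRT20, described below, had more than a few counts in CAL-29 cells alone. The stretches around the transcription starts of these contrasting genes are shown, from 250 bases before to 50 bases after the start. They are RefSeq sequences of GRCh38.p14, in which 3 of the 10 genes (KRT5, KRT8 and KRT20) had an entry. KRT5 covers chr12:52520345-52520644 and KRT20 chr17:40885193-40885492, both on the minus strand and printed 5′ to 3′ along the gene. Capitals mark the TATA-like letters ATAAAA, searched on both strands.
KRT5: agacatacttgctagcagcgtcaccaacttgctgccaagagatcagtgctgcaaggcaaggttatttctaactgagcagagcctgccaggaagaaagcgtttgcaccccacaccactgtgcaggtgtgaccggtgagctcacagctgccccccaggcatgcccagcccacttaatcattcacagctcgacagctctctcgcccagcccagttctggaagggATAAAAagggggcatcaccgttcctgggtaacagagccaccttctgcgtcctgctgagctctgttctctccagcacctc
KRT20: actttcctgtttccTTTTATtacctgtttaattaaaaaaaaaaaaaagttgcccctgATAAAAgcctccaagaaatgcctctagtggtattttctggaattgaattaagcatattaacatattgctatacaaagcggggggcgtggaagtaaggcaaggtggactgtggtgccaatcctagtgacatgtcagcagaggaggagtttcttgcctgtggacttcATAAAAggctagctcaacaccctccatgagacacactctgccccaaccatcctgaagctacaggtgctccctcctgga

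Both genes held the letters just upstream of the start, with the first base at position −29 in KRT5 and −28 in KRT20, counted from the start. KRT20 held them again at −193 and, on the other strand, at −236. The KRT8 entry, which is not shown, did not hold them on either strand. The letters ATAAAA were held by 16% of the 35116 promoters of the same source. The AP-1 letters TGANTCA (7.71% of promoters) and the AP-2 letters GCCNNNGGC (23.2%) were found in none of the 3 entries, which says only that these letters are not in this window.

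KRT17, a type I keratin of basal and stressed epithelium, was the basal keratin with the highest level in both lines. It stood at 1071, 1217 and 1261 CPM per kb in CAL-29 siCtrl libraries and at 1055, 1124 and 1089 in 5637 siCtrl libraries. The groups overlapped and KRT17 was not called (log2 difference 0.13 ± 0.06, adjusted p = 0.0714). Of the stretches of 50 bases in the KRT17 transcript, 17.4% also occur in other genes. KRT6A, a type II keratin that is induced in wounded and hyperproliferative epithelium, stood at 24.1, 24.2 and 22.4 CPM per kb in CAL-29 cells and at 121, 133 and 122 in 5637 cells. It was 5.29-fold lower in CAL-29 cells (log2 difference −2.40 ± 0.05, adjusted p = 3.65e-18). Of the stretches of 50 bases in the KRT6A transcript, 39.2% also occur in other genes, mainly KRT6C and KRT6B, so that counts of KRT6A may include reads of these copies.

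KRT13, the type I keratin of intermediate cells, was found mainly in CAL-29 cells. Its level was 42.3, 45.2 and 42.2 CPM per kb there and 0.549, 0.668 and 0.684 in 5637 cells, where it had 30.5, 35 and 41 counts. It was 68.2-fold higher in CAL-29 cells (log2 difference 6.09 ± 0.09, adjusted p = 1.57e-20). An antisense gene overlaps 21.6% of its exon bases, and since the strand setting of the counting is not given, reads of the antisense gene cannot be told apart.

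Of the luminal genes, KRT7, a type II keratin of ductal and transitional epithelium, showed the opposite pattern. It stood at 42.3, 48.3 and 48.5 CPM per kb in CAL-29 cells and at 2180, 2210 and 2286 in 5637 cells, where it was the keratin with the highest level. KRT7 was 47.8-fold lower in CAL-29 cells (log2 difference −5.58 ± 0.07, adjusted p = 3.07e-21). Per length, KRT7 was at 0.0179 ± 0.000827 of the KRT8 level in CAL-29 cells, and the same ratio was 3.71 ± 0.0756 in 5637 cells. The antisense gene KRT7-AS overlaps 13.6% of the KRT7 exon bases.

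KRT8 and KRT18, the keratin pair of simple epithelium, were both higher in CAL-29 cells. KRT8 stood at 2488, 2662 and 2605 CPM per kb against 583, 609 and 606 in 5637 cells, a 4.33-fold difference (log2 2.12 ± 0.06, adjusted p = 9.77e-17). KRT18 stood at 1466, 1585 and 1571 CPM per kb against 575, 609 and 607, a 2.59-fold difference (log2 1.37 ± 0.06, adjusted p = 2.61e-14). The partners were at the same level in 5637 cells, with a KRT8 to KRT18 ratio of 1.0 ± 0.00907, and at a ratio of 1.68 ± 0.0196 in CAL-29 cells. Both genes have many processed pseudogenes, and 39.2% of the 50-base stretches of KRT8 and 36.7% of those of KRT18 occur in other genes. KRT18 also overlaps other genes, an alternative KRT8 transcript among them, over 31.1% of its exon bases.

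KRT19, a type I keratin that is found in many epithelial layers, differed least among the luminal genes. It stood at 984, 1029 and 1010 CPM per kb in CAL-29 cells and at 1111, 1148 and 1161 in 5637 cells. The groups did not overlap, but the difference was small and did not reach the calling threshold (log2 −0.17 ± 0.05, adjusted p = 0.00561). KRT20, the keratin of umbrella cells, had 330, 324.5 and 301.5 counts in CAL-29 cells and 1, 0 and 3 counts in 5637 cells. The ratio of the scaled counts was 296, with a 95% interval of 115 to 1089 that covers counting error only. In CAL-29 cells KRT20 was nevertheless at a low level, 6.75 ± 0.545 CPM per kb.

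Knockdown of KMT9α in CAL-29 cells was accompanied by a lower level of most of the keratins, basal and luminal alike. At p below 1e-06, 7 of the 10 genes were called, all lower, against a background of 30.0% of the 14673 genes tested, 15.0% higher and 15.0% lower. At an adjusted p below 0.05, 8 were lower and KRT7 was higher, against 34.3% of all genes higher and 35.2% lower. The sum of the 10 genes fell from 7055, 7676 and 7616 CPM per kb in the siCtrl libraries to 2943, 3017 and 3055 in the siKMT9α libraries. Not divided by length, the counts of the 10 genes were 1.25% ± 0.0585 of the scaled library before and 0.498% ± 0.00926 after. In bulk RNA, fewer cells that express a keratin and less keratin mRNA per cell cannot be told apart.

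The median log2 fold change of the basal genes was −2.31, where the median of all genes tested was −0.02. KRT17 moved most of the 10 genes: it fell from between 1071 and 1261 CPM per kb to 139, 145 and 150, which is 8.27-fold (log2 fold change −3.05 ± 0.06, adjusted p = 3.06e-19). KRT6A fell to 6.83, 6.0 and 5.82 CPM per kb (log2 fold change −1.94 ± 0.07, adjusted p = 1.71e-15). KRT5 fell to 423, 442 and 428 CPM per kb, less than the other basal genes (log2 fold change −1.25 ± 0.06, adjusted p = 4.05e-14). For each of these genes the siKMT9α libraries were all lower than the siCtrl libraries. The ratio of KRT17 to KRT5 per length moved from 1.17 ± 0.0297 to 0.336 ± 0.0127.

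KRT14 had 6, 2 and 4.5 counts in the siKMT9α libraries, against 24, 29 and 15. Its log2 fold change of −2.68 ± 0.48 did not reach the calling threshold (adjusted p = 5.04e-05). The call depends on the fit: KRT14 passed with no filter on low counts (−2.67) and when the 12 libraries were fitted together (−2.66). It also passed with a block for the replicate number. At this depth its level was close to the limit of detection, and its few counts may include reads of KRT16.

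KRT13 fell from between 42.2 and 45.2 CPM per kb to 11.3, 12.5 and 15.3 (log2 fold change −1.76 ± 0.08, adjusted p = 3.44e-14). Its libraries did not overlap. The size of the change lay between those of KRT6A and KRT5.

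The luminal genes split, with a median log2 fold change of −0.43. KRT8 fell from between 2488 and 2662 CPM per kb to 937, 955 and 984 (log2 fold change −1.45 ± 0.05, adjusted p = 1.48e-15). KRT18, its partner, fell from between 1466 and 1585 to 626, 635 and 632 (log2 fold change −1.31 ± 0.05, adjusted p = 4.32e-15). Both partners thus fell, and their ratio per length moved from 1.68 ± 0.0196 to 1.52 ± 0.0327.

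KRT19 fell less, to 738, 755 and 776 CPM per kb (log2 fold change −0.43 ± 0.05, adjusted p = 9.55e-08). The libraries did not overlap, but the KRT19 call was lost without siCtrl library 2 or without any of the 3 siKMT9α libraries, where its log2 fold change was −0.41 to −0.44. KRT7 stood at 55.2, 59.3 and 56.8 CPM per kb after knockdown against 42.3, 48.3 and 48.5 before. Every siKMT9α library was above every siCtrl library, with a log2 fold change of 0.28 ± 0.06 that did not reach the calling threshold (adjusted p = 0.000124). KRT7 passed with no filter on low counts (0.29) and with a block for the replicate number. KRT20 was at 7.33, 6.80 and 6.61 CPM per kb against 7.24, 6.84 and 6.17, and no difference was detectable (log2 fold change 0.02 ± 0.10, adjusted p = 0.869).

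**Figure D2:**
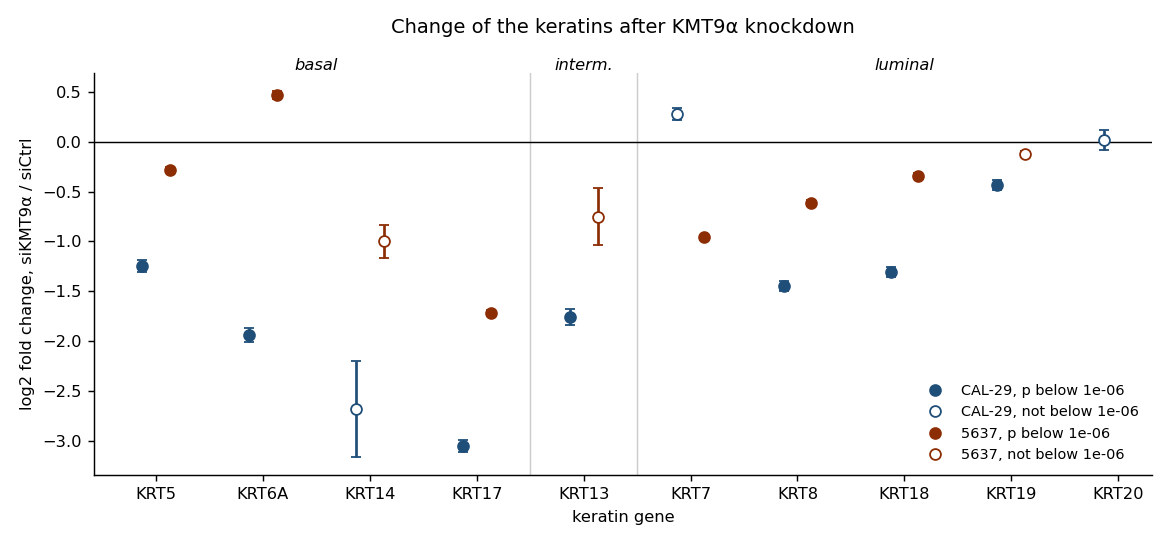
Log2 fold change of each keratin after KMT9α knockdown (siKMT9α over siCtrl) in CAL-29 and 5637 cells, with bars for ± 1 standard error; filled points have p below 1e-06 and KRT20 was not tested in 5637 cells. KRT17 has the lowest value among the called genes in each line, and KRT6A and KRT7 lie on opposite sides of 0 in the lines.

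In 5637 cells 1 basal keratin rose, and 8 of the 9 keratins tested had a log2 fold change nearer to 0 than in CAL-29 cells, with KRT7 as the exception. Of these 9 genes 6 were called, KRT6A higher and KRT5, KRT7, KRT8, KRT17 and KRT18 lower. The background was 35.6% of 14335 genes called, 18.0% higher and 17.6% lower. At an adjusted p below 0.05, 1 was higher and 8 were lower, against 35.1% of all genes higher and 35.6% lower. The sum of the 10 genes went from 6191, 6435 and 6471 CPM per kb to 3963, 4076 and 4120.

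The median log2 fold change in 5637 cells was −0.64 for the basal and −0.47 for the luminal genes tested, where the median of all genes was −0.01. KRT17 again moved most. It fell from between 1055 and 1124 CPM per kb to 332, 325 and 335, which is 3.30-fold (log2 fold change −1.72 ± 0.03, adjusted p = 1.04e-26). KRT5 fell only slightly, from between 563 and 599 to 488, 484 and 477 CPM per kb (log2 fold change −0.28 ± 0.03, adjusted p = 3.02e-09). All siKMT9α libraries lay below all siCtrl libraries for both genes. When the 12 libraries were fitted together the KRT5 call was lost at the same log2 fold change of −0.28.

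KRT6A rose from 121, 133 and 122 CPM per kb to 169, 172 and 181, with no overlap (log2 fold change 0.47 ± 0.04, adjusted p = 1.95e-12). KRT14 had 44, 45.5 and 47 counts after knockdown against 108.5, 97 and 119. Its log2 fold change of −1.0 ± 0.17 narrowly missed the calling threshold (adjusted p = 4.59e-06), and it passed when the libraries were scaled by total counts (−1.05) or no filter on low counts was used (−1.0). KRT13 had 21.5, 17 and 14.5 counts against 30.5, 35 and 41, without overlap in counts and with a log2 fold change of −0.75 ± 0.29 that did not reach the calling threshold (adjusted p = 0.0206).

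KRT7, the keratin with the highest level in 5637 cells, fell to 1080, 1163 and 1197 CPM per kb from between 2180 and 2286 (log2 fold change −0.96 ± 0.03, adjusted p = 2.14e-20). It remained the keratin with the highest level there. KRT8 fell to 388, 396 and 396 CPM per kb from between 583 and 609 (log2 fold change −0.61 ± 0.03, adjusted p = 7.29e-17). KRT18 fell to 467, 476 and 479 CPM per kb from between 575 and 609 (log2 fold change −0.34 ± 0.03, adjusted p = 1.05e-10). The KRT8 to KRT18 ratio went from 1.0 ± 0.00907 to 0.830 ± 0.00340, so the partners were unequally lowered here.

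KRT19 stood at 1038, 1060 and 1054 CPM per kb against 1111, 1148 and 1161. The groups did not overlap, but the log2 fold change of −0.12 ± 0.03 did not reach the calling threshold (adjusted p = 0.000628). KRT19 passed when the libraries were scaled by total counts (−0.17). KRT20 had 0, 0 and 2 counts against 1, 0 and 3 and was below the filter on low counts.

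The responses of the lines were compared by the interaction term of a fit over all 12 libraries, given as the CAL-29 response minus the 5637 response. Of the 10 keratins 6 differed at p below 1e-06, 1 with a higher and 5 with a lower value in CAL-29 cells, against 15.7% of the 15395 genes tested, 8.62% higher and 7.11% lower. At an adjusted p below 0.05, 50.4% of all genes passed. Of the genes called, 54.8% were higher in this term, and 72.4% when libraries were scaled by total counts, which moved the median of all genes from 0.04 to 0.16. None of the 6 keratins changed direction or lost its call under that scaling.

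The difference was largest for KRT6A, which fell in CAL-29 cells and rose in 5637 cells (difference −2.39 ± 0.08, adjusted p = 3.77e-20). KRT17 fell in both lines and more in CAL-29 cells (−1.31 ± 0.07, adjusted p = 3.31e-15). The same held for KRT5 (−0.95 ± 0.07, adjusted p = 8.58e-13). Of the basal genes only KRT14 was not called (−1.66 ± 0.49, adjusted p = 0.00562), with its few counts in CAL-29 cells.

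Of the luminal genes, KRT8 (−0.82 ± 0.06, adjusted p = 2.06e-12) and KRT18 (−0.95 ± 0.06, adjusted p = 7.38e-14) fell more in CAL-29 cells. KRT7 was the gene with the opposite sign: it fell in 5637 cells and did not fall in CAL-29 cells (difference 1.26 ± 0.07, adjusted p = 1.68e-14). KRT19 (−0.30 ± 0.06, adjusted p = 8.1e-05) and KRT13 (−0.99 ± 0.31, adjusted p = 0.00811) did not reach the calling threshold, which KRT19 passed with DESeq2 and without CAL-29 siCtrl library 1 (−0.31 each). The value of KRT20 (0.70 ± 1.16) rests on a few counts in 5637 cells and is not interpreted.

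The make-up of the keratin mRNA was different after knockdown in both lines. In CAL-29 cells the share of the basal genes in the summed CPM per kb went from 28.7, 30.0 and 30.6% to 19.3, 19.7 and 19.1%. In 5637 cells it went from 28.1, 28.9 and 28.0% to 25.0, 24.1 and 24.1%. The libraries did not overlap in either line, and no test was made of these shares, which follow from the members chosen.

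Among the basal genes KRT17 took the smaller share. It went from 15.9% ± 0.688 to 4.82% ± 0.0932 in CAL-29 cells and from 17.1% ± 0.328 to 8.16% ± 0.196 in 5637 cells. The share of KRT5 did not go down: it was 13.6% ± 0.350 before and 14.3% ± 0.327 after knockdown in CAL-29 cells. In 5637 cells the share of KRT5 was 9.21% ± 0.112 before and 11.9% ± 0.381 after. KRT19, which changed least in level among the abundant genes, took a larger share, from 13.5% ± 0.359 to 25.2% ± 0.201 and from 17.9% ± 0.0627 to 25.9% ± 0.309.

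**Figure D3:**
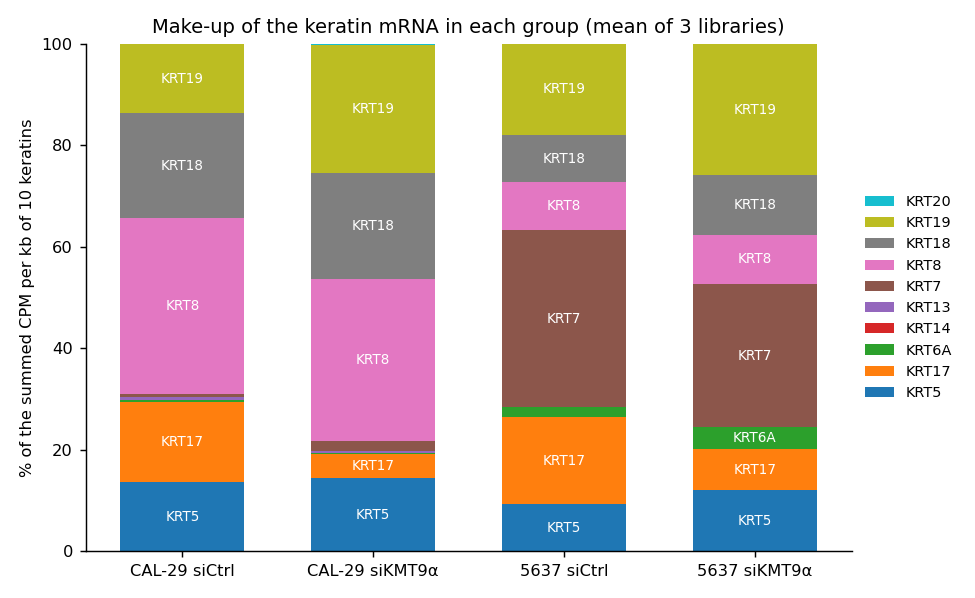
Share of each of the 10 keratins in their summed CPM per kb, as the mean of the 3 libraries of each group, stacked from 0 to 100%. KRT17 takes a smaller and KRT19 a larger share after knockdown in both lines, and KRT8 leads in CAL-29 cells where KRT7 leads in 5637 cells.

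The order of the genes changed accordingly. After knockdown it was KRT8, KRT19, KRT18, KRT5, KRT17, KRT7, KRT13, KRT20, KRT6A and KRT14 in CAL-29 cells, with an overlap between libraries only for KRT20 and KRT6A. In 5637 cells it was KRT7, KRT19, KRT5, KRT18, KRT8, KRT17, KRT6A, KRT14, KRT13 and KRT20, with an overlap only for KRT5 and KRT18. KRT17 moved from the third place to the fifth in CAL-29 cells and from the third to the sixth in 5637 cells.

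The balance of type II to type I keratins, which pair in the filament, was examined over 54 listed keratin genes. The type II genes made up 55.5% ± 0.271 of their summed CPM per kb in CAL-29 siCtrl cells and 55.9% ± 0.201 after knockdown. In 5637 cells the values were 55.7% ± 0.319 and 54.0% ± 0.489. The balance at the mRNA level thus moved by less than 2 percentage points, while the sum over these genes went from 8672 ± 388 to 3599 ± 54.4 CPM per kb in CAL-29 cells and from 6505 ± 155 to 4134 ± 84.7 in 5637 cells. The 10 urothelial keratins were 85.9% ± 0.116 of all listed keratins in CAL-29 siCtrl cells and 97.8% ± 0.0323 in 5637 siCtrl cells.

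The remainder in CAL-29 cells was mostly KRT80, a type II keratin of several epithelia that alone held 10% ± 0.153 of the keratin sum there and 1.26% ± 0.0104 in 5637 cells. KRT80 fell in CAL-29 cells from 3246, 3434 and 3404 to 1512, 1467 and 1457 CPM (log2 fold change −1.20 ± 0.05) and in 5637 cells from 308, 325 and 322 to 114, 117 and 123 CPM (−1.44 ± 0.04). KRT81, a hair keratin, was 81.3-fold higher in CAL-29 than in 5637 siCtrl cells. It fell by 0.69 ± 0.05 on the log2 scale in CAL-29 cells and by 4.38 ± 0.22 in 5637 cells, where 6.46, 6.28 and 6.35 CPM became 0.306, 0.151 and 0.436. KRT86, its near copy, with 38.4% of the 50-base stretches of KRT81 in common, was called lower in CAL-29 cells (−0.59 ± 0.08), a call that was lost when libraries were scaled by total counts, and not called in 5637 cells (−0.92 ± 0.28). Of the 22 other type II genes, 7 were tested in each line, with 4 lower and none higher in CAL-29 cells (adjusted p below 0.05: 4 lower, 1 higher) and KRT80 and KRT81 lower and KRT6B higher in 5637 cells. The shares of all genes were 15.0% in either direction in CAL-29 cells, and 17.6% lower and 18.0% higher in 5637 cells.

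The close copies of KRT6A and KRT14 were examined separately. KRT6B, like KRT6A, fell in CAL-29 cells and rose in 5637 cells: it went from 4.55, 3.28 and 3.46 CPM to 0.799, 0.421 and 0.628 in CAL-29 cells (log2 fold change −2.63 ± 0.26) and from 5.08, 6.87 and 5.23 to 9.88, 11.1 and 11.3 in 5637 cells (0.91 ± 0.11). Both changes were called, and so was their difference (−3.52 ± 0.27, adjusted p = 5.13e-12). KRT6C was below the filter in CAL-29 cells and not called in 5637 cells (0.12 ± 0.21). KRT16, the type I partner of the KRT6 proteins, fell in both lines. It went from 74.3, 84.3 and 80.6 CPM to 5.11, 4.15 and 6.44 in CAL-29 cells (−3.97 ± 0.10), which is 15.6-fold, and from 14.0, 14.3 and 14.5 to 8.12, 9.23 and 8.86 in 5637 cells (−0.71 ± 0.08). KRT6B shares 28.6% of its 50-base stretches with KRT6A, and KRT16 shares 11.2% with KRT14.

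KRT15, a type I keratin of basal cells, was called higher in both lines, whereas KRT5, KRT16 and KRT17 were called lower in both. KRT6A and KRT6B were called lower in CAL-29 and higher in 5637 cells, and KRT14 was not called in either line. KRT15 stood at 12.2, 12.2 and 9.72 CPM before and 19.9, 17.8 and 20.1 CPM after knockdown in CAL-29 cells (0.74 ± 0.10), and at 7.53, 7.07 and 7.83 against 19.8, 20.2 and 18.5 in 5637 cells (1.38 ± 0.08). KRT10, a keratin of differentiated epidermis, was not called in either line (0.15 ± 0.07 and −0.14 ± 0.06). Of the 22 other type I genes 6 were tested in CAL-29 cells, with KRT16 lower and KRT15 higher (adjusted p below 0.05: 4 lower, 1 higher). In 5637 cells 5 were tested, with KRT16 and KRT23 (−2.27 ± 0.09) lower and KRT15 higher (adjusted p below 0.05: 3 lower, 1 higher). KRT23 was not called in CAL-29 cells (−1.84 ± 0.36), and nor was its difference between the lines (0.45 ± 0.35). Over all genes 15.0% were called in either direction in CAL-29 cells, and 17.6% lower and 18.0% higher in 5637 cells. At an adjusted p below 0.05 these shares were 35.2% lower and 34.3% higher, and 35.6% lower and 35.1% higher.

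**Figure D4:**
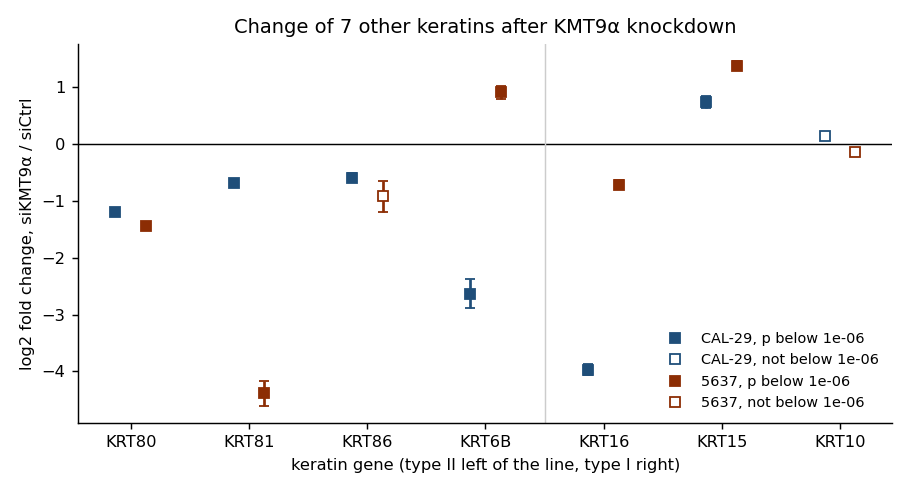
Log2 fold change (siKMT9α over siCtrl) of 7 keratins outside the urothelial set in CAL-29 and 5637 cells, with bars for ± 1 standard error; filled squares have p below 1e-06. KRT80, KRT81 and KRT16 are lower in both lines, KRT15 is higher in both, and KRT6B lies on opposite sides of 0.

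Genes that anchor keratin filaments to desmosomes and hemidesmosomes, or that organise them, were a list of 11 genes, all tested. In CAL-29 cells 7 were called lower and PKP3 higher (0.45 ± 0.05), where 15.0% of all genes were called lower and 15.0% higher. The median log2 fold change was −0.61. One of the 7, DST, depended on the transcript row. The row with the most counts in CAL-29 cells fell (−0.70 ± 0.05), whereas the row with the most counts over both lines did not pass (−0.07 ± 0.07), which left 6 genes lower and a median of −0.34. PKP2 lost its call in both lines when libraries were scaled by total counts. In 5637 cells PKP1 fell (−0.85 ± 0.04) and PKP2 (0.30 ± 0.04), PKP3 (0.28 ± 0.03) and DST (0.44 ± 0.04) rose, with a median of 0.07 and a background of 18.0% of all genes higher and 17.6% lower. PKP1, PKP2 and PKP3 encode plakophilins of the desmosome and DST a hemidesmosome linker, and genes named here beyond the 3 highest of a list were chosen after their values were seen. PLEC, which encodes the linker plectin, fell in CAL-29 cells (−0.72 ± 0.07) and was not called in 5637 cells (0.07 ± 0.03), and the difference was itself called (−0.78 ± 0.09, adjusted p = 1.1e-08). JUP, the desmosomal plakoglobin, was not called in either line (−0.28 ± 0.05 and −0.11 ± 0.03), and neither was FAM83H, which organises the keratin cytoskeleton (−0.10 ± 0.04 and 0.15 ± 0.03). In the interaction term 6 of the 11 genes were called with a lower value in CAL-29 cells and 0 with a higher one (adjusted p below 0.05: 9 lower, 2 higher), against 7.11% lower and 8.62% higher over all genes.

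Among 13 other intermediate filament genes, VIM, which encodes the mesenchymal filament protein vimentin, differed strongly between the lines. VIM stood at 25.5, 36.3 and 39.5 CPM in CAL-29 siCtrl libraries and at 1.09, 1.08 and 1.33 CPM after knockdown, a 29.5-fold fall (log2 fold change −4.88 ± 0.17). In 5637 cells VIM rose from 360, 369 and 372 to 578, 597 and 578 CPM (0.67 ± 0.03). The difference between the lines was −5.54 ± 0.17 (adjusted p = 6.44e-21). The nuclear lamin genes LMNA (0.03 ± 0.05 and 0.96 ± 0.03) and LMNB2 (0.66 ± 0.05 and 0.32 ± 0.03) were called higher except for LMNA in CAL-29 cells. Of the list, 8 genes were tested in CAL-29 cells (all genes: 15.0% higher, 15.0% lower), with LMNB1 (1.38 ± 0.05) and LMNB2 higher and VIM and NES (−3.95 ± 0.07) lower. In 5637 cells 9 were tested (all genes: 18.0% higher, 17.6% lower), with VIM, LMNA, LMNB1 (0.30 ± 0.03) and LMNB2 higher and NES (−2.07 ± 0.18), SYNM (−0.87 ± 0.09) and NEFL (−2.20 ± 0.14) lower.

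The keratins were set beside other genes that mark the layers of the urothelium. Of 10 basal markers, 7 fell and NGFR rose (1.43 ± 0.10) in CAL-29 cells, where 15.0% of all genes were called lower and 15.0% higher. The median over the 10 was −0.79. In 5637 cells ITGA6, NGFR (−1.95 ± 0.21) and TRIM29 (−0.73 ± 0.04) fell and 4 genes rose, with a median of 0.17, where 17.6% of all genes were called lower and 18.0% higher. The risers in 5637 cells were TP63, the basal transcription factor (0.36 ± 0.03), the desmosomal cadherins DSG3 (0.76 ± 0.05) and DSC3 (0.48 ± 0.05), and COL17A1, a hemidesmosomal collagen (0.62 ± 0.03). In CAL-29 cells these 4 genes fell, by 0.70 ± 0.05, 0.93 ± 0.06, 0.98 ± 0.05 and 0.60 ± 0.08 on the log2 scale in the same order, and each of the 4 differences between the lines was called. Scaled by total counts, COL17A1 was not called in CAL-29 cells. The integrin gene ITGA6 fell in both lines (−1.51 ± 0.05 and −0.86 ± 0.03), and its hemidesmosome partner ITGB4 fell in CAL-29 cells (−0.90 ± 0.05) and was not called in 5637 cells (0.18 ± 0.03). CDH3, the P-cadherin gene, was not called in either line (0.19 ± 0.05 and 0.16 ± 0.03), though its adjusted p was below 0.05 in both. With RLE, another scaling, ITGB4 was called higher in 5637 cells. At an adjusted p below 0.05, 8 basal markers were lower and 2 higher in CAL-29 cells (all genes: 35.2% and 34.3%). In 5637 cells 3 were lower and 6 higher (all genes: 35.6% and 35.1%).

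Of 11 luminal markers, ELF3, FOXA1 (1.09 ± 0.05) and KLF5 (1.09 ± 0.05) rose and GRHL3 (−1.51 ± 0.11) and UPK1B fell in CAL-29 cells, with a median of −0.05. The background was the same 15.0% of all genes in either direction. In 5637 cells 9 were tested, of which FOXA1 (0.59 ± 0.08) and KLF5 (0.93 ± 0.03) rose, and GATA3 (−0.84 ± 0.06), PPARG (−0.55 ± 0.04), ELF3, UPK1B and UPK3B fell, with a median of −0.84, against 18.0% of all genes called higher and 17.6% lower. ELF3, a transcription factor of differentiating epithelium, rose in CAL-29 cells from 217, 212 and 201 to 487, 476 and 486 CPM (1.18 ± 0.05) and fell in 5637 cells from 151, 156 and 154 to 113, 125 and 118 CPM (−0.38 ± 0.04). UPK1B, a uroplakin of the urothelial surface, was 51.4-fold higher in CAL-29 than in 5637 siCtrl cells. The direction, but not the size, was that of KRT20. After knockdown UPK1B fell in both lines (−0.52 ± 0.05 and −2.24 ± 0.18). UPK3B, another uroplakin gene, was not called in CAL-29 cells (0.14 ± 0.05) and fell in 5637 cells (−1.23 ± 0.04). In the interaction term GATA3, PPARG, ELF3, UPK1B and UPK3B were called with a higher value in CAL-29 cells, 5 of the 11 luminal markers, and 0 with a lower one (adjusted p below 0.05: 8 higher, 0 lower). Of the 10 basal markers NGFR was called with a higher value and 6 with lower values. Over all genes 8.62% were called higher and 7.11% lower in this term. The higher share of all calls, 54.8%, became 72.4% with scaling by total counts, where 6 luminal markers were higher and the basal counts were the same.

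Both lines carried the epithelial markers throughout, and their summed level was lower after knockdown. The sum of 5 epithelial markers was 3594 to 4160 CPM in CAL-29 siCtrl and 2525 to 2536 CPM in siKMT9α libraries, and 924 to 954 against 677 to 688 CPM in 5637 cells. The splicing factor gene ESRP2 rose in both lines (0.53 ± 0.05 and 0.52 ± 0.06) and ESRP1 in 5637 cells (0.51 ± 0.04). EPCAM (−0.77 ± 0.05 and −0.94 ± 0.03), CDH1, the E-cadherin gene (−0.75 ± 0.06 and −0.54 ± 0.03), and CLDN4, a tight junction claudin (−0.75 ± 0.06 and −0.55 ± 0.04), fell in both lines. Whether this fall has a part in the keratin values was not tested.

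Genes used as markers of fibroblasts, endothelium, leukocytes and smooth muscle were also summed. In bulk RNA the cells that express them cannot be told. The 4 fibroblast markers summed to between 0.601 and 2.95 CPM over the 12 libraries, and neither PDGFRB, PDGFRA nor LUM was called in either line where tested. The 3 endothelial markers summed to between 0.452 and 4.59 CPM, with CDH5 called higher in CAL-29 cells and lower in 5637 cells and VWF not called. The 3 leukocyte markers summed to between 2.60 and 11.8 CPM, with CD3E at 0 in every group but CAL-29 siCtrl, and CD68 was called higher in CAL-29 cells. The 3 smooth muscle markers summed to 65.5 to 71.1 CPM in CAL-29 siCtrl and 27.5 to 30.4 CPM in siKMT9α libraries, with CNN1 and SMTN lower, and to 36.7 to 36.8 against 62.2 to 65.3 CPM in 5637 cells, with SMTN higher. Their part in the keratin values was not tested.

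The genes whose levels were most like those of 3 keratins over the 12 libraries were found by the Pearson correlation of log2(CPM + 1) among 12957 genes. For KRT5 these were SH3D19 (0.9943), KRT16 (0.9904), SIAH2 (0.9889), and IQCJ-SCHIP1 and SCHIP1 (0.9835 and 0.9834), of which the last pair overlap and share counts. For KRT13 they were ANGPTL2 and ABI1 (0.9986 each), COL4A3 (0.9976), ZMAT3 (0.9973) and TPD52 (0.9972). For KRT18 they were LPCAT2 (0.9969), LBH (0.9959), CTNNB1 (0.9957), MYADM (0.9955) and NES (0.9945). The 12 libraries fall into 4 groups, so the points share their line and treatment, and the values are given as a description.

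The 3′ UTRs of the 10 keratins were searched for the 7-base site ACATTCA, on the transcript strand, that pairs with bases 2 to 8 of the antisense strand of the siRNA against KMT9α. The site was found in none of the 10 genes, and 13.3% of 17972 genes with a 3′ UTR held it. The 3′ UTRs of the keratins were short, from 64 bases in KRT18 to 544 in KRT6A. The 17972 genes were not matched to them for length, so their share is no expectation for the keratins. The corresponding site of a second siRNA of the study, CACATTC, which was not used for these libraries by the study's account, was present once in KRT5 and in 11.9% of genes.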

How the data were processed

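RNA from 12 siRNA-treated samples of CAL-29 and 5637 cells was sequenced, and the study aligned reads to hg19 with STAR and counted them per RefSeq transcript with Homer. Neither read length nor the strand setting is given in the sources used here. The deposited tables hold estimated counts, in steps of 0.5, for 37400 transcript rows (37.3% of the values were not whole), which were rounded to whole numbers for the tests. The tables also hold the authors' own log2 fold changes and p-values of knockdown against control, which were not used. Samples were grouped by the labels, and the columns named si270 are the libraries of the siRNA against KMT9α per the study's text.

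Each of 23064 symbols was represented by its transcript row of highest count, within the line for knockdown and over both lines otherwise and for all levels. Genes were filtered with filterByExpr, scaled by TMM and tested with edgeR 4.0.16 (R 4.3.3) by the quasi-likelihood F test, with Benjamini-Hochberg adjustment over all genes tested, and called at an unadjusted p below 1e-06 as in the study. The standard error is the log2 fold change divided by the square root of F. The comparisons were knockdown in each line (6 libraries each), the lines' siCtrl libraries (6), and the interaction over 12 libraries. For CPM per kb, the length was that of the MANE Select transcript of the symbol in GENCODE v44 lifted to GRCh37, which may differ from the transcript counted. An exact permutation test of 3 against 3 cannot go below p = 0.1, so single values were tested only in the fits across all genes. Intervals cover counting error only.

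The members, lists and comparisons were chosen with earlier results of these data known. Named were the 10 keratins, N6AMT1, the close copies KRT6B, KRT6C and KRT16, the 3 genes with the highest CPM per kb of each other list, and the 5 genes most correlated with KRT5, KRT13 and KRT18 (mean count of at least 50). Other genes of the lists were named after their values were seen. No library was a copy of another: between replicates, chi-square over its degrees of freedom was 2.22 to 11.7, above sampling noise. The highest values, 7.85 and 11.7, were those of CAL-29 siCtrl library 1 against libraries 2 and 3 of its group. Between libraries 2 and 3 the value was 3.23. The fits were tested on simulated counts with 100 genes changed 2-fold and 100 changed 4-fold. The changed genes were drawn from those with a mean of at least 50 counts. Far fewer genes were changed in the simulation than were called in the data. Of these 2-fold changes 98% were recovered for knockdown in CAL-29 (14526 genes), 97% for 5637 (14226), 99% for the lines (14889) and 88% for the interaction (15088). All 4-fold changes of these genes were recovered. The rates do not cover genes with fewer counts, such as KRT14 in CAL-29 and KRT13 in 5637 cells. Other scalings, filters, thresholds, a replicate block, all transcripts, a joint fit, DESeq2 1.42.0 and leaving out each library were tried as alternatives.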

Additional observations from a re-analysis of the deposited data

Results flagged for a closer look

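The response to knockdown differed between the lines for 6 of the 10 keratins, tested by the interaction term of edgeR's quasi-likelihood fit and given as the CAL-29 log2 fold change minus that of 5637 cells. At the limit of these calls, p below 1e-06, 15.7% of the 15395 genes tested were called in this term. At an adjusted p below 0.05, 50.4% passed. The differences of the 6 keratins were −2.39 for KRT6A, −1.31 for KRT17, −0.95 for KRT5, −0.82 for KRT8, −0.95 for KRT18 and 1.26 for KRT7. KRT6A was lower in 3 of 3 siKMT9α libraries of CAL-29 cells and higher in 3 of 3 of 5637 cells than in every siCtrl library of the line. KRT7 was higher in 3 of 3 siKMT9α libraries of CAL-29 cells, a change that was not called there, and lower in 3 of 3 of 5637 cells. KRT5, KRT8, KRT17 and KRT18 were lower in all siKMT9α libraries of both lines. Line, transfection reagent, siRNA dose and medium cannot be told apart in these differences. With 3 libraries a group, no library was removed as an outlier from the fits reported, and each was left out in turn only as an alternative.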

How the results depend on the processing

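Of the log2 fold changes of the keratins under the alternatives, 634 kept their direction and side of the threshold, 21 passed it only under the alternative, 12 passed it only in the fit reported, and 3 changed sign. The last were of KRT20, which was not called: leaving out each library, its knockdown value in CAL-29 ran from −0.03 (without siCtrl library 3) to 0.08 and was −0.02 without siKMT9α library 1, and its interaction ran from −0.45 (without 5637 siCtrl library 3) to 3.44. At an adjusted p below 0.05 the genes called rose to 10194 (knockdown in CAL-29), 10138 (knockdown in 5637), 12834 (between the lines) and 7764 (interaction). With every transcript row as a unit they were 7863, 9248, 14692 and 4482, where more rows were tested. With glmTreat against a 1.5-fold change, called at an adjusted p below 0.05, 3 keratins and 2216 genes passed in 5637 cells. At the unadjusted p below 1e-06 of the fit reported, these numbers were 6 and 5104. KRT5, KRT6A and KRT18 changed by less than 1.5-fold there (1.22-, 1.39- and 1.26-fold). Leaving out each library gave 6 to 7, 6 to 6, 7 to 8 and 6 to 7 keratins called and 3119 to 5469, 4288 to 4974, 6549 to 9090 and 2032 to 2785 genes, in the same order. Whether the replicate numbers pair the libraries was not settled by the correlations of same-numbered deviations. These were 0.181, 0.0393 and 0.0575 in CAL-29 and 0.181, −0.00854 and −0.0116 in 5637 cells. Some libraries, but not every one, correlated best with their own number. With the replicate block 9, 6, 8 and 6 keratins and 6327, 5378, 9290 and 2915 genes were called, and the keratins gained were KRT14 (−2.70) and KRT7 (0.28) in CAL-29 cells. Using for every gene the transcript row of highest count over both lines, an alternative added after seeing the data, DST lost its call in CAL-29 cells (−0.07). KRT14 in CAL-29 cells and KRT13 and KRT20 in 5637 cells had few counts, which limits their precision.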
